A study of Tigriopus californicus with 4 samples.

Results

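Ion pumps, carbonic anhydrases and the ion carriers named with them were examined in heat stressed and control pools of the tidepool copepod *Tigriopus californicus*. Members were all contigs whose product name, taken by the authors from a BLAST search, held "sodium potassium", "na+ k+", "vacuolar atp", "v-type proton", "v-type atpase", "h+ transporting atpase", "calcium-transporting atpase" or "carbonic anhydrase". Names with "channel", "atp synthase" or a square bracket were dropped. The rule found 40 of 20278 contigs in the San Diego (SD) population and 30 of 20931 contigs in the Santa Cruz (SC) population, and no expression value was used to find them.

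The study compared the response of the 2 populations to an acute heat stress in lab-reared animals. One SD heat stress library and 1 SC heat stress library came from animals kept for 1 h at 35°C and then returned to 20°C for 1 h. One SD control library and 1 SC control library came from animals held at 20°C throughout. Each library was made from a pool of 300 to 400 whole animals of all developmental stages, with no other treatment and no genetic change. With 1 library per condition, no difference below can be set against the spread between replicates. The heat stress libraries shared 1 sequencing lane and the control libraries the adjacent lane, so lane and treatment cannot be told apart. In pooled whole animals, fewer cells of a type and less RNA per cell cannot be told apart either.

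Sodium/potassium ATPase, built from a catalytic alpha and a supporting beta subunit, spends ATP to move sodium out of cells and potassium in. That gradient drives secondary carriers such as the sodium-potassium-chloride cotransporters. Carbonic anhydrases turn carbon dioxide and water into bicarbonate and protons, which feed exchange of acid and base across gill and integument in crustaceans. Calcium pumps of the endoplasmic reticulum, the Golgi and the plasma membrane keep cytosolic calcium low. Vacuolar ATPases acidify organelles and energise some epithelia. Animals of splash pools meet wide swings of salinity as well as of temperature.

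The names matched were not those of every pump of interest. Of the 40 SD members, 8 were sodium/potassium ATPase alpha, 6 beta, 3 calcium-transporting ATPase and 13 carbonic anhydrase. The other SD members were 6 cation chloride cotransporters and 4 sodium/potassium/calcium exchangers. The 30 SC members were 7 alpha, 4 beta, 3 calcium-transporting ATPase, 12 carbonic anhydrase, 2 cotransporter and 2 exchanger contigs. The name "sodium potassium adenosine triphosphatase", on 1 contig in each population, gives no subunit, and these contigs were counted as alpha. No vacuolar ATPase contig was a member, because these are named either "vacuolar atp synthase" or "vacuolar proton pump" and similar. They numbered 11 in each population and are described apart from the members. Several contigs can be pieces or copies of 1 gene, for instance 4 of the SD alpha contigs carried an identical name, and reads could be split among them.

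Values are RPKM as deposited, reads scaled to contig length and to a library total. Read numbers were recovered from them as the lowest integers that fit a contig in both libraries. The totals found with them were 5583127 in the SD heat stress and 1947202 in the SD control library, 2.87 times apart, and 4948622 in the SC heat stress and 3256758 in the SC control library, 1.52 times apart. A single read on a contig of 1000 bp was worth 0.179 RPKM in the SD heat stress, 0.514 in the SD control, 0.202 in the SC heat stress and 0.307 in the SC control library. The median contig had a heat to control ratio of 0.977 in SD and 1.32 in SC. Changes are therefore also given as a relative fold change, which divides a contig's ratio by that median. The 95% intervals are exact binomial (Clopper-Pearson) ones for how a contig's reads divide between 2 libraries, and cover counting error only. Recovered reads are minima, since the true numbers can be a multiple where both read numbers and the length share a factor. The intervals and the low read counts below rest on these minima.

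As a check of the treatment, summed heat shock protein contigs stood at 8944 RPKM in heat stressed SD against 524 in the SD control, and at 5584 RPKM in heat stressed SC against 1924 in the SC control. Contigs of vitellogenin, the yolk protein of females, had a median log2 fold change of -0.10 in SD and 1.82 in SC, with 13 of 13 SC contigs above a ratio of 1. Cuticle contigs had a median of 1.07 in SD and -1.33 in SC, with 44 of 48 SC contigs below 1. Among the 59 SD cuticle contigs 19 were called up and 1 down by the test described below, and 41 of the 51 above 0 in both SD libraries had a ratio above 1. Among the 23 SD vitellogenin contigs 0 were called up and 4 down. Of all SD contigs, 1.35% were called up and 1.24% down. These markers of reproduction and moulting thus moved in SC. In SD those of moulting moved too, as did some contigs of the reproduction marker. Their part in the results on the pumps was not tested.

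Across the members, SD was nearly level and SC moved in both directions. In SD the 40 members summed to 1228 RPKM after heat stress and 1339 RPKM in the control, with a median log2 fold change of -0.08, against -0.03 over all SD contigs. In SC the 30 members summed to 1148 RPKM after heat stress and 1044 RPKM in the control, with a median of 0.35, against 0.40 over all SC contigs. Relative to the median contig the SC median was -0.04, with 14 members above and 16 below, so the list as a whole followed its library.

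**Figure D1:**
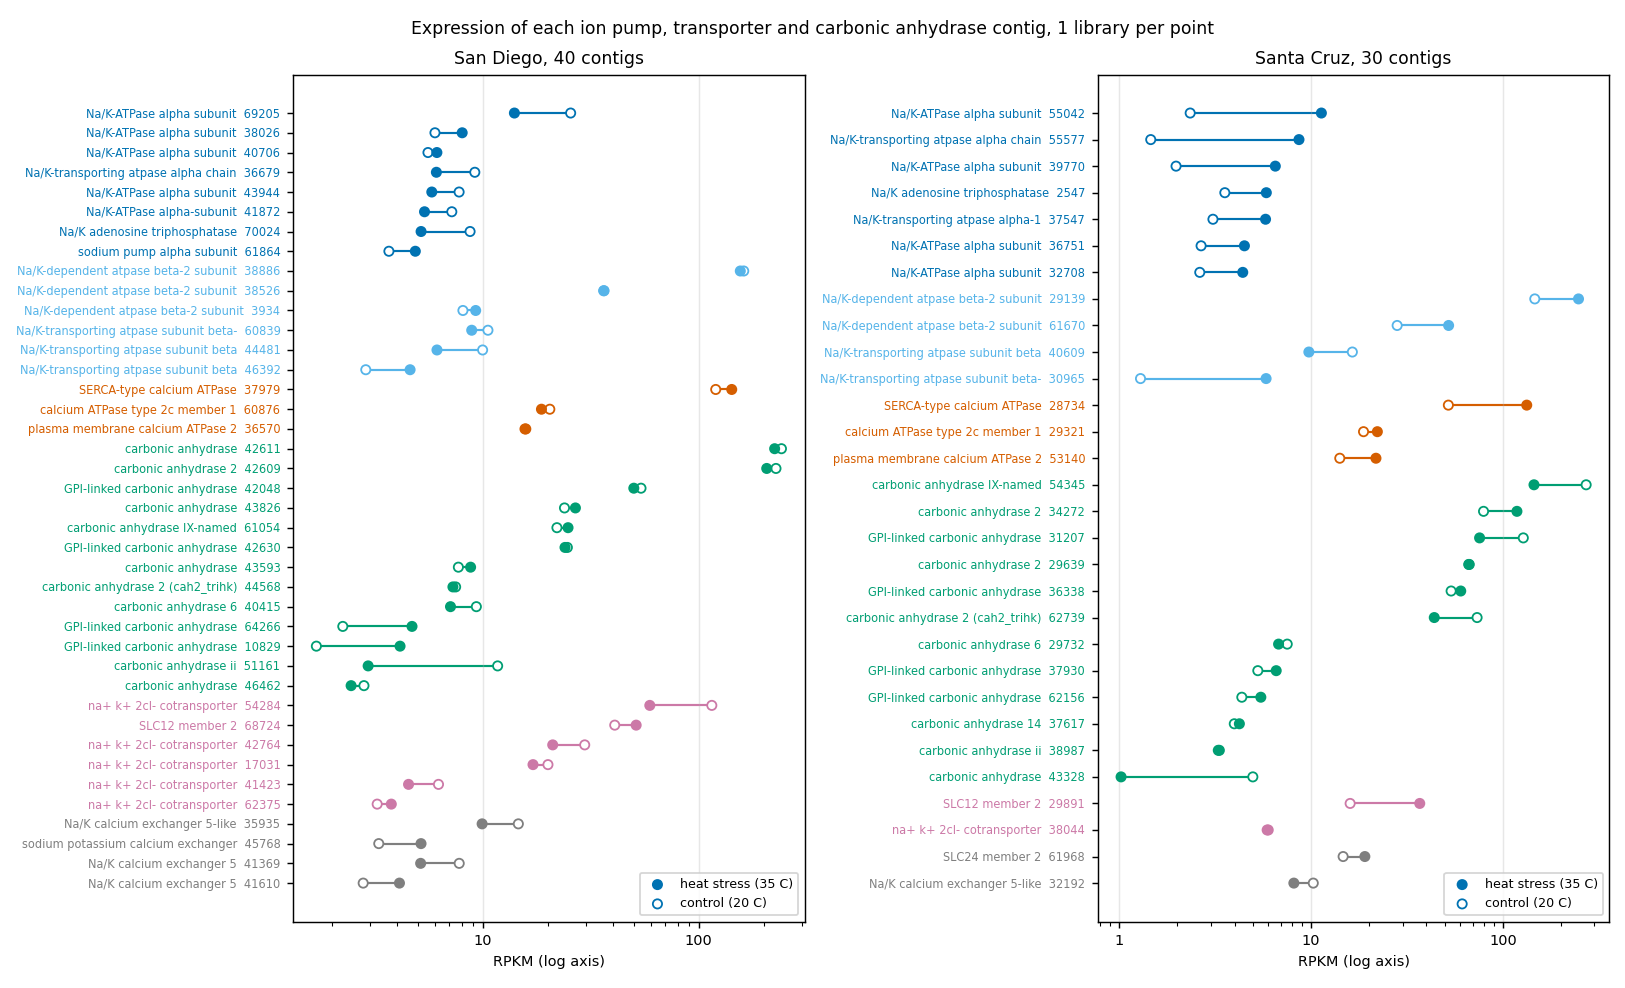
RPKM (horizontal axis, log scale) of each member contig (down the page, coloured by family), after heat stress (filled points) and in the control (open points), for SD and SC, with 1 library per point. The SC contig with the carbonic anhydrase IX name stands at 145 RPKM after heat stress and 272 in the control, and the SC endoplasmic reticulum (SERCA-type) calcium pump at 133 RPKM after heat stress and 52.0 in the control.

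Contigs were called with Kal's Z-test on RPKM as shares of their sum, at a Bonferroni adjusted p of at most 0.10 over all contigs of a population. RPKM values took the place of read counts in this test, so its p-values do not measure the counting error of reads. A call compares 2 libraries, not 2 conditions. In SD, 0 of 40 members were called, where 1.35% of all contigs were called up and 1.24% down. The same test on recovered reads called 2 SD members, both down, and a Benjamini-Hochberg threshold of 0.05 called 1. In SC, 2 of 30 members were called up and 1 down, where 3.05% of all contigs were called up and 2.49% down. Scaling the SC libraries to the median contig left 0 members called up and 2 called down, so which SC members were called depends on the scaling. No member was called in one direction without the scaling and in the other with it. On recovered reads, 6 SC members were called up and 3 down. The shares of all contigs called on reads or at the Benjamini-Hochberg threshold were not counted. The counts of members by those tests therefore cannot be read as an excess, and the shares above do not apply to them.

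A rule of size was applied beside the test. It asked for a relative fold change of at least 1.5 in either direction and a 95% interval without 1. In SD, 0 members passed upwards and 3 downwards, against 5.32% and 5.36% of all SD contigs. In SC, 4 members passed upwards and 6 downwards, against 15.9% and 23.4% of all SC contigs. With RPKM as deposited, 7 SC members passed upwards and 5 downwards. These shares of members lie near those of all contigs of the same population, and are therefore no result about ion pumps as a group. What follows describes where the families and single contigs stood.

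**Figure D2:**
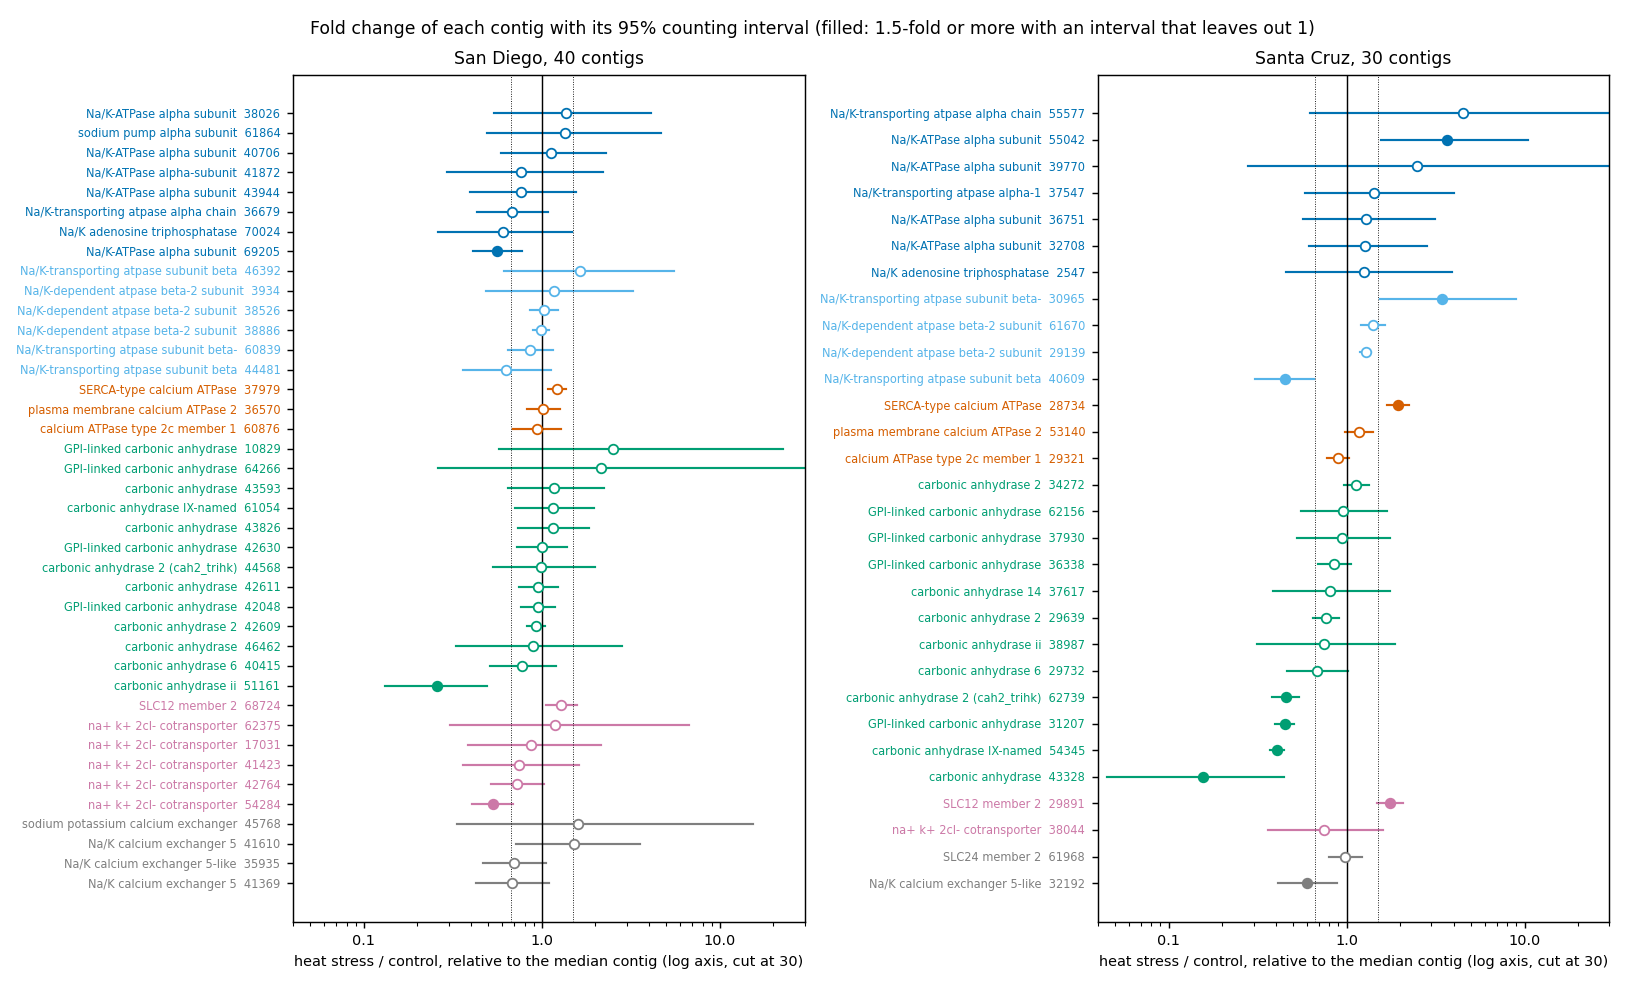
Relative fold change after heat stress of every member contig (points, log scale, axis cut at 30) with its 95% counting interval (lines), by family, in SD and SC. Filled points passed the rule of size, 3 in SD and 10 in SC, and dotted lines mark a 1.5-fold change. The 7 SC alpha contigs lie above 1 and 11 of the 12 SC carbonic anhydrases lie below it.

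The catalytic alpha subunit of the sodium/potassium ATPase lay on opposite sides of its library's median in the 2 populations. The 8 SD alpha contigs summed to 55.4 RPKM after heat stress and 73.5 RPKM in the control, from 311 and 154 reads, a pooled relative fold change of 0.721 (0.592 to 0.880). The 7 SC alpha contigs summed to 47.1 RPKM after heat stress and 17.7 RPKM in the control, from 144 and 41 reads, a pooled relative fold change of 1.76 (1.23 to 2.55). All 7 SC contigs had a ratio above 1, and 3 of the 8 SD contigs did. Over all contigs above 0 in both libraries, 63.9% did in SC and 46.7% in SD. Among those averaging under 10 RPKM, the shares were 78% in SC and 55.5% in SD. The pooled relative fold change of alpha in SD over that in SC was 0.410 (0.276 to 0.610, counting error only). The same pooled value over all contigs was 1.03 in SD and 0.770 in SC, a ratio of 1.34, so pooled values of a family are not to be read against 1 alone. These all-contig values are set mostly by contigs with many reads. They are no matched background for weakly expressed contigs such as those of alpha, whose level is taken up below.

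In SD the family was led by 1 contig, SD_Contig69205. It fell by the rule of size, with 13.99 RPKM after heat stress and 25.5 RPKM in the control, 107 and 68 reads and a relative fold change of 0.562 (0.411 to 0.773). The other SD alpha contigs lay between 4.86 and 8.02 RPKM after heat stress, and none of them had an interval without 1. Examples are the alpha chain SD_Contig36679, with 6.09 RPKM after heat stress and 9.17 RPKM in the control, and the adenosine triphosphatase SD_Contig70024, with 5.17 RPKM after heat stress and 8.72 RPKM in the control.

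In SC the highest alpha contig was SCN_Contig55042, which carries the same product name as the SD leader. It rose by the rule of size, with 11.3 RPKM after heat stress and 2.35 RPKM in the control, a relative fold change of 3.67 (1.56 to 10.5) that rested on 44 and 6 reads. The alpha chain SCN_Contig55577 had 8.66 RPKM after heat stress and 1.46 RPKM in the control, but from only 9 and 1 reads, with a relative interval of 0.624 to 197. The adenosine triphosphatase SCN_Contig2547 had 5.85 RPKM after heat stress and 3.56 RPKM in the control. No alpha contig was called by Kal's test in either population.

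Expression level moved with this contrast. All SC alpha contigs averaged under 10 RPKM over both libraries, and all SC contigs in that range had a median log2 fold change of 0.86, beside 0.91 for the 7 alpha contigs. The same range in SD had a median of 0.12, beside -0.42 for the 8 SD alpha contigs, 7 of which lay in it. The SC alpha contigs thus lay close to the other weakly expressed contigs of the same libraries. The SD alpha contigs lay below theirs by the median, although only 1 of them passed the rule of size. In narrower SD ranges, with median levels of 5.55, 6.43 and 7.43 RPKM, the medians of all contigs were -0.017, -0.060 and 0.004. The lower quartiles there were -0.484, -0.52 and -0.442, so the alpha median of -0.42 lay above them. At 4.70 RPKM the lower quartile was -0.368, above the alpha median.

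The beta subunit is needed to bring the alpha subunit to the membrane. Its contigs summed to more RPKM than the alpha contigs in every library. Contigs are not whole genes and an alpha contig under another name would be missed, so the subunits cannot be ranked by this. The leading beta contigs are named beta-2. In SD, SD_Contig38886 had 155.7 RPKM after heat stress and 161.5 RPKM in the control, a relative fold change of 0.986 (0.892 to 1.09) from 1451 and 525 reads. The 6 SD beta contigs summed to 221 RPKM after heat stress and 229 RPKM in the control, with 3 above and 3 below a ratio of 1.

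In SC, the beta-2 contig SCN_Contig29139 was called up by Kal's test, with 248 RPKM after heat stress and 147 RPKM in the control. Its relative fold change was 1.28 (1.196 to 1.378), below the size asked, and the call was lost when the libraries were scaled to the median contig. The other SC beta-2 contig, SCN_Contig61670, had 52.2 RPKM after heat stress and 28.1 RPKM in the control, a relative fold change of 1.41 (1.21 to 1.65).

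The 2 remaining SC beta contigs passed the rule of size in opposite directions. SCN_Contig30965, named "subunit beta-", rose, with 5.84 RPKM after heat stress and 1.29 RPKM in the control from 48 and 7 reads, a relative fold change of 3.43 (1.54 to 8.98). SCN_Contig40609, named "subunit beta", fell, with 9.75 RPKM after heat stress and 16.4 RPKM in the control from 55 and 61 reads, a relative fold change of 0.451 (0.307 to 0.660). The SD contig of the name "subunit beta-", SD_Contig60839, had 8.87 RPKM after heat stress and 10.6 RPKM in the control.

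Among the calcium pumps, the one of the endoplasmic and sarcoplasmic reticulum had the most reads and the highest lower bound of the relative fold change in SC. SCN_Contig28734 had 133 RPKM after heat stress and 52.0 RPKM in the control, from 1020 and 262 reads. Its fold change was 2.56 (2.24 to 2.95) as deposited and 1.95 (1.70 to 2.24) relative to the median contig. It was called up and passed the rule of size. The call, though not the rule of size, was lost with scaling to the median contig.

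Its SD counterpart by name, SD_Contig37979, had 142 RPKM after heat stress and 120 RPKM in the control, a relative fold change of 1.21 (1.08 to 1.37). It passed neither rule, and its interval lies above 1. Heat stressed animals of the 2 populations thus carried similar levels of this transcript, 142 RPKM in SD and 133 RPKM in SC, while the controls stood at 120 RPKM in SD and 52.0 RPKM in SC. RPKM of 2 assemblies are set side by side here and depend on how each contig was assembled.

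The other calcium pumps stayed close to their library's median. The Golgi pump of type 2c had 18.7 RPKM after heat stress and 20.4 RPKM in the control in SD, and 22.2 RPKM after heat stress and 18.8 RPKM in the control in SC. Its SC ratio was 1.18 as deposited and 0.897 relative to the median contig, so its direction depends on the scaling. The plasma membrane pump 2 had 15.7 RPKM after heat stress and 15.8 RPKM in the control in SD, and 21.8 RPKM after heat stress and 14.1 RPKM in the control in SC. Its relative fold change was 1.01 (0.822 to 1.26) in SD and 1.17 (0.978 to 1.41) in SC.

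Carbonic anhydrases were the largest family and the one in which SC values lay lowest. The 12 SC contigs summed to 538 RPKM after heat stress and 702 RPKM in the control, with a pooled relative fold change of 0.559 (0.530 to 0.590), beside 0.770 over all SC contigs. Their median log2 fold change was -0.0047 as deposited and -0.40 relative to the median contig. Relative to the median contig 11 of them lay below 1, and as deposited 6 did. The 13 SD contigs summed to 594 RPKM after heat stress and 637 RPKM in the control, with a pooled relative fold change of 0.934 (0.862 to 1.01). The pooled relative fold change of SD over that of SC was 1.67 (1.52 to 1.84), beside 1.34 over all contigs.

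In SC 4 of 12 carbonic anhydrases fell by the rule of size and none rose, where 23.4% of all SC contigs fell and 15.9% rose. These 4 carry the lower sum of the family, with 266 RPKM after heat stress and 478 RPKM in the control, while the other 8 summed to 272 RPKM after heat stress and 224 RPKM in the control. SCN_Contig54345, whose name is that of a construct with the carbonic anhydrase IX active site, had 145 RPKM after heat stress and 272 RPKM in the control, from 806 and 992 reads. Its relative fold change was 0.406 (0.370 to 0.446), and it was the only member called down by Kal's test. It held the highest control level of any member.

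SCN_Contig31207 is by its name a form tethered to the outer face of the plasma membrane by a lipid anchor. It had 75.6 RPKM after heat stress and 127.8 RPKM in the control, a relative fold change of 0.450 (0.397 to 0.509). It joined SCN_Contig54345 among the calls when the libraries were scaled to the median contig. SCN_Contig62739, labelled cah2_trihk, had 43.9 RPKM after heat stress and 73.4 RPKM in the control, a relative fold change of 0.454 (0.380 to 0.543). The fourth, SCN_Contig43328, was rare, with 1.024 RPKM after heat stress and 4.98 RPKM in the control from 5 and 16 reads.

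Not all SC carbonic anhydrases moved this way. SCN_Contig34272, a carbonic anhydrase 2, had 118 RPKM after heat stress and 79.3 RPKM in the control, a ratio of 1.49 and a relative fold change of 1.13 (0.964 to 1.34), and was the only SC carbonic anhydrase above the median contig. The second carbonic anhydrase 2, SCN_Contig29639, had 66.8 RPKM after heat stress and 66.4 RPKM in the control. Of the other 3 lipid-anchored contigs the relative fold changes lay between 0.853 and 0.955. Carbonic anhydrase 6, a secreted form in mammals, had 6.78 RPKM after heat stress and 7.52 RPKM in the control. Carbonic anhydrase 14 (SCN_Contig37617) had 4.24 RPKM after heat stress and 3.98 RPKM in the control, and carbonic anhydrase ii (SCN_Contig38987) had 3.29 RPKM after heat stress and 3.33 RPKM in the control.

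In SD the abundant carbonic anhydrases were nearly level. SD_Contig42611 had 225 RPKM after heat stress and 242 RPKM in the control, and the carbonic anhydrase 2 contig SD_Contig42609 had 206 RPKM after heat stress and 228 RPKM in the control. Both intervals include 1. The SD contig with the carbonic anhydrase IX name, SD_Contig61054, had 24.8 RPKM after heat stress and 22.0 RPKM in the control. The SD cah2_trihk contig, SD_Contig44568, had 7.26 RPKM after heat stress and 7.47 RPKM in the control, and SD carbonic anhydrase 6 had 7.08 RPKM after heat stress and 9.32 RPKM in the control.

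One SD carbonic anhydrase fell by the rule of size. SD_Contig51161, named carbonic anhydrase ii, had 2.94 RPKM after heat stress and 11.7 RPKM in the control, a relative fold change of 0.257 (0.132 to 0.490) from 18 and 25 reads. Only this contig passed at a required fold of 2. The remaining 7 SD carbonic anhydrases lay between 2.45 and 50.0 RPKM after heat stress, and each had an interval that includes 1. The 2 with the highest ratios, SD_Contig10829 and SD_Contig64266, had 2 and 1 control reads.

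The cation chloride cotransporters, which carry sodium, potassium and chloride together into cells, included the most abundant SD member that fell. SD_Contig54284, a sodium-potassium-chloride cotransporter, had 59.3 RPKM after heat stress and 114.9 RPKM in the control, from 148 and 100 reads, a relative fold change of 0.528 (0.407 to 0.688). It was called down by Kal's test on reads but not on RPKM. The other 4 SD contigs of this name had relative fold changes between 0.727 and 1.19, each with an interval that includes 1. The SC contig of this name, SCN_Contig38044, had 5.91 RPKM after heat stress and 5.99 RPKM in the control.

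Solute carrier family 12 member 2, the same kind of cotransporter, had ratios above 1 in both populations. SCN_Contig29891 rose by the rule of size, with 36.9 RPKM after heat stress and 16.0 RPKM in the control from 599 and 171 reads, a relative fold change of 1.75 (1.48 to 2.09). SD_Contig68724 had 51.3 RPKM after heat stress and 40.8 RPKM in the control, a relative fold change of 1.29 (1.06 to 1.57), and did not pass. In SD, then, SD_Contig54284 and SD_Contig68724, single contigs of 2 names for one kind of carrier, lay on opposite sides of 1.

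The sodium/potassium/calcium exchangers, which use the sodium gradient to export calcium, were few. The 4 SD contigs summed to 24.3 RPKM after heat stress and 28.4 RPKM in the control, and the 2 SC contigs to 27.2 RPKM after heat stress and 24.99 RPKM in the control. The exchanger 5-like contig had ratios below 1 in both, with 9.91 RPKM after heat stress and 14.6 RPKM in the control in SD, and 8.14 RPKM after heat stress and 10.3 RPKM in the control in SC. Only the SC contig fell by the rule of size, at a relative fold change of 0.602 (0.413 to 0.880), and its interval as deposited, 0.544 to 1.16, includes 1. The member 2 exchanger SCN_Contig61968 had a relative fold change of 0.986.

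There were 11 product names on exactly 1 member contig in each population. An identical best BLAST name does not show that 2 contigs are orthologous. For 5 of the 11 the 95% counting interval of the SD over SC ratio of relative fold changes left out 1, with the fold higher in SD for 2 and higher in SC for 3. Over all 4381 such names, 32.4% had the fold higher in SD and 16.8% had it higher in SC.

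The 2 names with the higher fold in SD were both carbonic anhydrases. The ratio was 2.84 (1.74 to 4.61) for the carbonic anhydrase IX name and 2.19 (1.16 to 4.13) for cah2_trihk, and for both the SD contig was close to its median while the SC contig fell. The 3 with the higher fold in SC were pumps or carriers of cations. The ratio was 0.251 (0.108 to 0.583) for beta-, 0.624 (0.521 to 0.747) for the endoplasmic reticulum calcium pump and 0.734 (0.567 to 0.950) for solute carrier family 12 member 2.

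The other 6 names did not separate the populations at this depth. The Golgi calcium pump had a ratio of 1.04 (0.753 to 1.45), the plasma membrane pump 0.865 (0.658 to 1.14), carbonic anhydrase 6 1.13 (0.650 to 1.98) and the exchanger 5-like contig 1.16 (0.681 to 1.96). The widest intervals were those of the alpha chain, 0.0183 to 1.25, and the adenosine triphosphatase, 0.142 to 1.66, both from contigs with few reads.

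**Figure D3:**
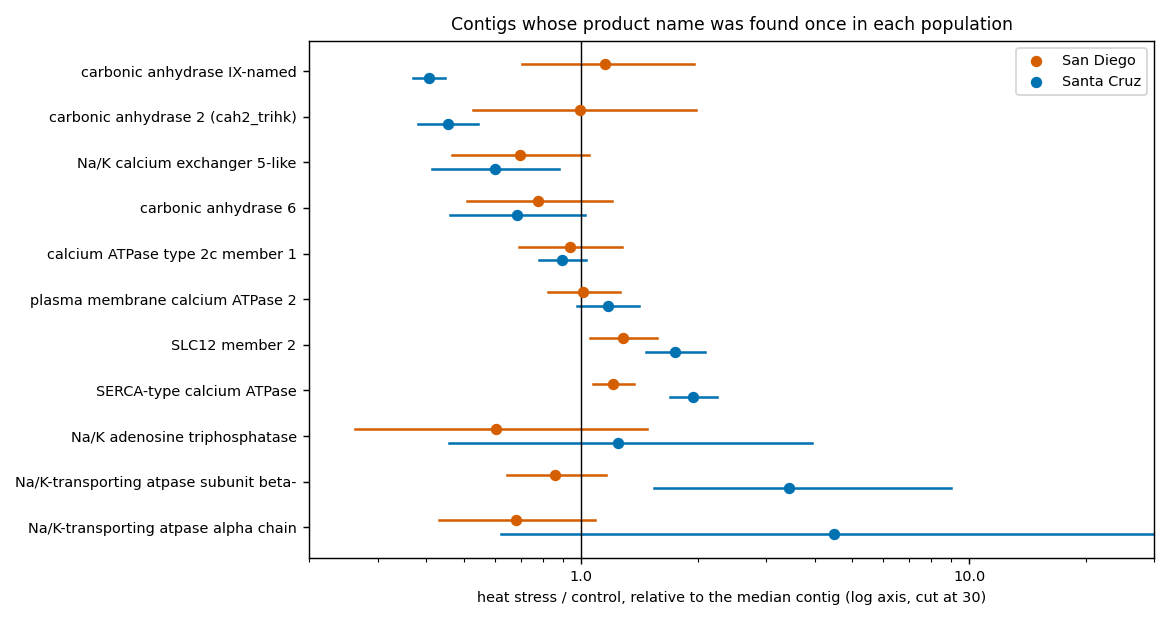
Relative fold change after heat stress (horizontal axis, log scale, cut at 30) in SD and SC for the 11 product names on 1 member contig in each population, with 95% counting intervals. The SC point lies well left of the SD point for the 2 carbonic anhydrases named in the text, and right of it for beta-, the endoplasmic reticulum calcium pump and solute carrier family 12 member 2.

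Level and length of the contig moved with the SC values. Among SC contigs above 100 RPKM on average the median log2 fold change was -0.29, and from 10 to 100 RPKM it was 0.16, against 0.86 under 10 RPKM. The 3 SC members above 100 RPKM had a median of -0.76, the 11 between had 0.38 and the 16 below had 0.52. In SD the 3 ranges differed less, at -0.03, -0.07 and 0.12 over all contigs and -0.08, -0.11 and -0.04 over the members.

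Among SC contigs of 10 RPKM or more, those with a recovered length of at least 2000 bp had a median log2 fold change of 0.56, against 0.12 from 1000 up to 2000 bp and -0.17 from 500 up to 1000 bp. All 6 SC members in the longest class, among them the beta-2 contigs, solute carrier family 12 member 2 and the plasma membrane pump, had a ratio above 1, with a median of 0.69. The 6 SC members from 1000 up to 2000 bp had a median of -0.75, with 4 carbonic anhydrases among them and 2 of the 6 above 1. Recovered lengths are minima. In SD the medians of contigs of 10 RPKM or more lay between -0.11 and -0.06 in every length class. The length classes hold only contigs whose fit had a chance under 0.05, which leaves out 3 of the 40 SD members, all over 2000 bp. The part of length or level in the values of the SC members was not tested.

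**Figure D4:**
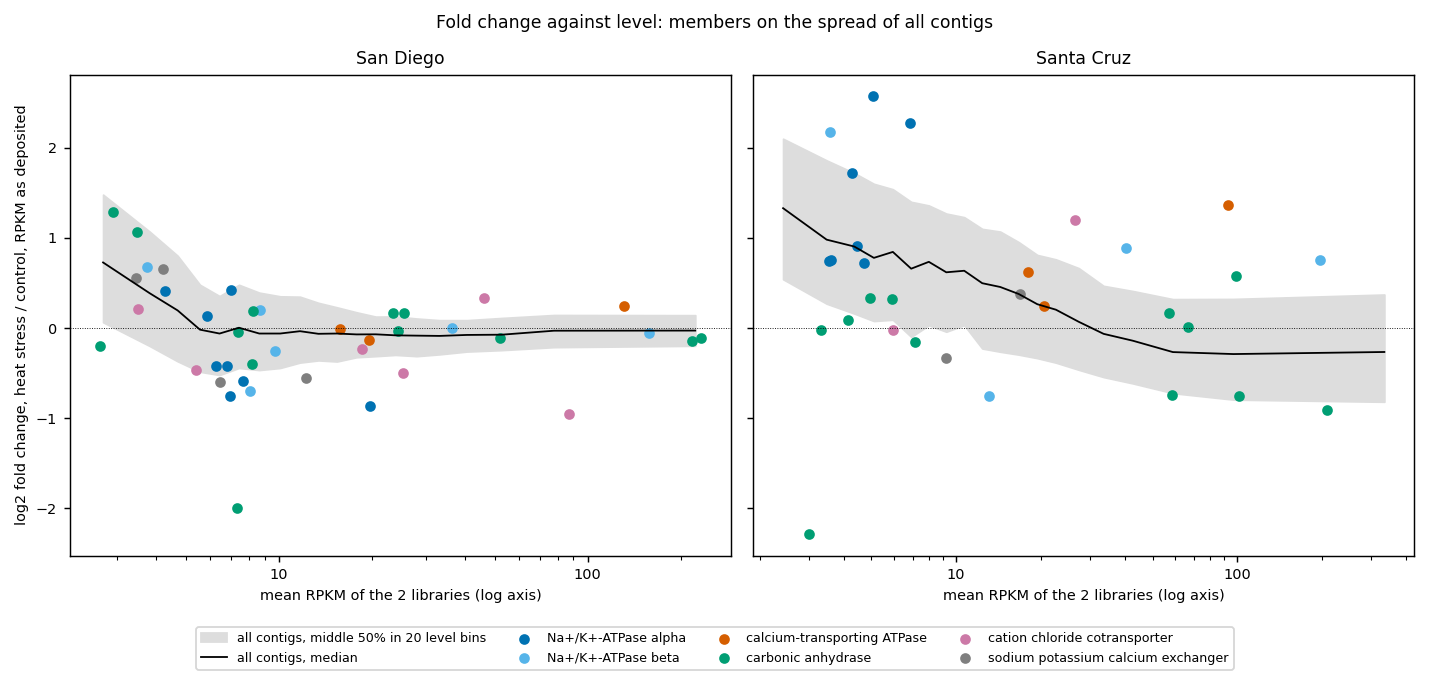
Log2 fold change after heat stress (vertical axis) against mean RPKM (horizontal axis, log scale) for the members (points, coloured by family) over the median and quartiles of all contigs in 20 bins of level (line and band), in SD and SC. The SC line descends from above to below 0 as level rises, and the SC carbonic anhydrases above 100 RPKM and the reticulum calcium pump lie on either side of it.

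Vacuolar ATPase contigs, left out by the rule, were even in SD and below the median contig in SC, where they lay close to all contigs of their level. The 11 SD contigs summed to 557.5 RPKM after heat stress and 548 RPKM in the control, with ratios between 0.837 and 1.35, and 0 passed either rule. The 11 SC contigs summed to 579 RPKM after heat stress and 645 RPKM in the control, with a median log2 fold change of -0.20 as deposited and -0.60 relative to the median contig. Their pooled relative fold change was 0.751, beside 0.770 over all SC contigs, and SC contigs with a median level of 59.1 RPKM had a median log2 fold change of -0.27 as deposited. By the rule of size 6 of the 11 fell and 0 rose, where 23.4% of all SC contigs fell and 15.9% rose, and 0 were called by Kal's test. With 1 library per condition these are descriptions only.

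Among the 6 SC contigs that fell, the 21 kDa proteolipid of the membrane ring, SCN_Contig54644, had 60.2 RPKM after heat stress and 93.3 RPKM in the control. Subunit f, SCN_Contig30915, had 34.2 RPKM after heat stress and 57.8 RPKM in the control. The others were subunit b, subunit e 2, pump subunit d and pump subunit e, at relative fold changes between 0.483 and 0.661. The other 5 did not pass. They were 2 contigs of the large membrane subunit a, at relative fold changes of 0.968 and, for isoform 1, 1.28, subunit h at 1.17, subunit c at 0.893 and subunit g at 0.704. The SD proteolipid, SD_Contig43878, had 57.1 RPKM after heat stress and 45.9 RPKM in the control.

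Mitochondrial ATP synthase, a rotary relative of the vacuolar pump that makes rather than spends ATP, was described beside it. Its 20 SC contigs had a median log2 fold change of -0.52, with 0 called up and 8 down, where 3.05% of all SC contigs were called up and 2.49% down. Its 16 SD contigs had a median of -0.04, with 0 called up and 2 down, where 1.35% of all SD contigs were called up and 1.24% down. These shares are not matched for level, and the ATP synthase contigs were abundant, with a median of 339 RPKM in the SC control. SC contigs with a median level of 334 RPKM had a median log2 fold change of -0.265, with quartiles of -0.817 and 0.372. The share called at that level was not counted. The other ion and water transporters, which include exchangers, chloride channels and aquaporins, gave 0 calls among 64 SD contigs. In SC 1 of 71 was called up and 0 down, and the medians were -0.05 in SD and 0.23 in SC. By the rule of size 4 rose and 0 fell in SD, against 5.32% and 5.36% of all SD contigs. In SC 8 rose and 15 fell, near the 15.9% and 23.4% of all SC contigs.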

How the data were processed

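Messenger RNA of 4 pooled libraries was sequenced as single-end reads. Per their methods, the authors built 1 assembly per population, aligned reads to it in CLC Genomics Workbench, took product names from BLASTX hits and deposited RPKM values, normalised to contig length and a total of reads. The totals recovered here were taken as those behind the values.

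Members and lists were chosen with earlier results of these data known. Whole reads were recovered as the smallest numbers fitting both RPKM values of a contig, a fit with a chance under 0.05 for 86.2% of SD and 99.4% of SC contigs. Kal's Z-test was run on RPKM shares over all contigs. Fold changes were also divided by the median ratio. Named contigs were those past either rule, the highest of each family, the 2 with the highest lower bound and the 2 with the lowest upper bound, and those with a name on 1 contig in each population. Other contigs, the vacuolar ATPase contigs included, were chosen after their values were seen. Alternatives were reads, Fisher's exact test, other thresholds, scalings, filters and a pseudocount of 1 RPKM. Recovery and tests were checked on simulated data (python 3.11.15, numpy 2.4.6, pandas 2.3.3, scipy 1.17.1). Sequences of the contigs were not used here.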

Additional observations from a re-analysis of the deposited data

How the results depend on the processing

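The SD members called numbered 0, against 2 by Kal's test on recovered reads, 1 by Fisher's exact test on recovered reads and 1 at a Benjamini-Hochberg threshold of 0.05, all down. The SC members called numbered 3, against 9 by each of the tests on reads and 8 at the Benjamini-Hochberg threshold. The shares of all contigs called by these alternatives were not counted, so no excess among the members can be read from them. A required fold of 2 left 1 SD member past the rule of size instead of 3. Adding the vacuolar ATPase contigs, chosen after seeing the data, gave 16 SC contigs past it instead of 10. The SC median log2 fold change was 0.35 as deposited and -0.044 relative to the median contig. These SC medians differ only by the median log2 ratio of all SC contigs, 0.396. The tests on reads took read counts where the main test took RPKM, and how far this set the differences between the tests was not tested. No paired analysis was possible because each condition had 1 library, and for the same reason no library could be left out. The SD control library held 1947202 reads, with 13 of 40 SD members at 10 or fewer recovered control reads, and 8 of 30 SC members were as low in the SC control.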

Other observations

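Partners of the calcium pumps, the calmodulins, calreticulins, calsequestrins and calcium release channels among them, were not in the comparisons above. In SD 0 of 55 such contigs were called, where 1.35% of all SD contigs were called up and 1.24% down. Their median log2 fold change was -0.07, and by the rule of size 1 rose and 3 fell, against 5.32% and 5.36% of all SD contigs. In SC 2 of 47 were called up and 0 down, where 3.05% of all SC contigs were called up and 2.49% down. Their median was 0.62 as deposited and 0.22 relative to the median contig. By the rule of size 7 rose and 13 fell, near the 15.9% and 23.4% of all SC contigs. Enzymes of proline and other osmolytes, the solutes with which these copepods balance salinity, numbered 9 in SD and 5 in SC. None was called in either population by Kal's test, and by the rule of size 2 rose and 0 fell in SD, while 1 rose and 1 fell in SC. Over all contigs 5.32% rose and 5.36% fell in SD, and 15.9% rose and 23.4% fell in SC. With so few enzymes these counts are descriptions only. The summed level of the osmolyte enzymes was 481 RPKM after heat stress and 444 RPKM in the control in SD. In SC it was 530.0 RPKM after heat stress and 476 RPKM in the control.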
